A study of Mus musculus with 12 samples.

Results

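The stromal collagen and matrix genes are 9 genes taken by symbol, Col1a1, Col1a2, Col3a1, Sparc, Bgn, Dcn, Postn, Fn1 and Cxcl12, out of 55806 genes in the table. Their transcripts were followed in cultures of osteoclasts, the multinucleated cells that resorb bone. They were grown from monocytes taken from the marrow of mice aged 8 to 12 weeks, kept with the cytokines M-CSF and RANKL, which make such cells fuse into osteoclasts, and were collected on day 4. The 4 groups were male Per2 knockout, male control, female Per2 knockout and female control, with 3 libraries each, 1 in each of 3 labelled batches. All 12 libraries shared the cytokines and the day of collection. Per2 encodes a protein that represses the circadian clock. Library names abbreviate the knockout as cKO and the title of the series names PER1; the sample labels name Per2 and were followed. Strain, Cre driver and the cells in which the gene was deleted are not stated in the labels. The labels call the replicates biological and do not say that each came from a separate mouse, so p-values cover the spread among libraries, which may be technical.

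Collagen types I and III are the fibrous proteins that give bone and soft connective tissue their tensile strength. They are made mainly by fibroblasts, osteoblasts and other mesenchymal stromal cells, which also secrete the proteins that bind to and organise the fibrils. Osteoclasts come from the blood-forming lineage and are known for dissolving this matrix, chiefly through cathepsin K and matrix metalloproteinases. Stromal cells adhere to plastic and can persist in cultures of bone marrow. Within the list, Col1a1 and Col1a2 encode the chains of type I collagen and Col3a1 that of type III collagen. Sparc encodes osteonectin, which binds collagen and calcium, and Postn encodes periostin, a matrix protein of periosteum and other connective tissue. Bgn and Dcn encode biglycan and decorin, small leucine-rich proteoglycans. Fn1 encodes fibronectin, an adhesive glycoprotein that macrophages also make. Cxcl12 encodes a chemokine of marrow stromal cells that retains blood-forming cells in the marrow.

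Values are FPKM, fragments scaled by gene length and library total, so levels can be compared between genes. Reads assigned to genes ran from 13888150 to 17762190 per library, except male knockout replicate 2 with 41145397. Per2 (chromosome 1) stood at 0.466, 0.39 and 0.23 FPKM in male knockouts, against 0.579, 0.721 and 0.701 FPKM in male controls. In females it stood at 0.258, 0.204 and 0.589 FPKM in knockouts, against 0.331, 0.53 and 0.368 FPKM in controls. The male groups did not overlap; in females the top level of the 6 was in the library labelled female knockout replicate 3, which so went against its label. These levels rest on 18 to 86 reads, and reads outside the deleted part of the gene would check nothing, so the differences of the 7 tested matrix genes in females are also given without that library. The cultures carried high levels of osteoclast genes: 14 osteoclast markers summed to 8700 FPKM or more in every library. Of the defining markers of bone-forming cells, Mepe was at 0 in every library, and Sp7, Bglap, Ibsp and Dlx5 stayed at or below 0.218 FPKM. Spp1 reached 613 to 1000 FPKM and Runx2 1.36 to 2.22 FPKM, and both are also known in osteoclasts or other marrow cells.

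**Figure D1:**
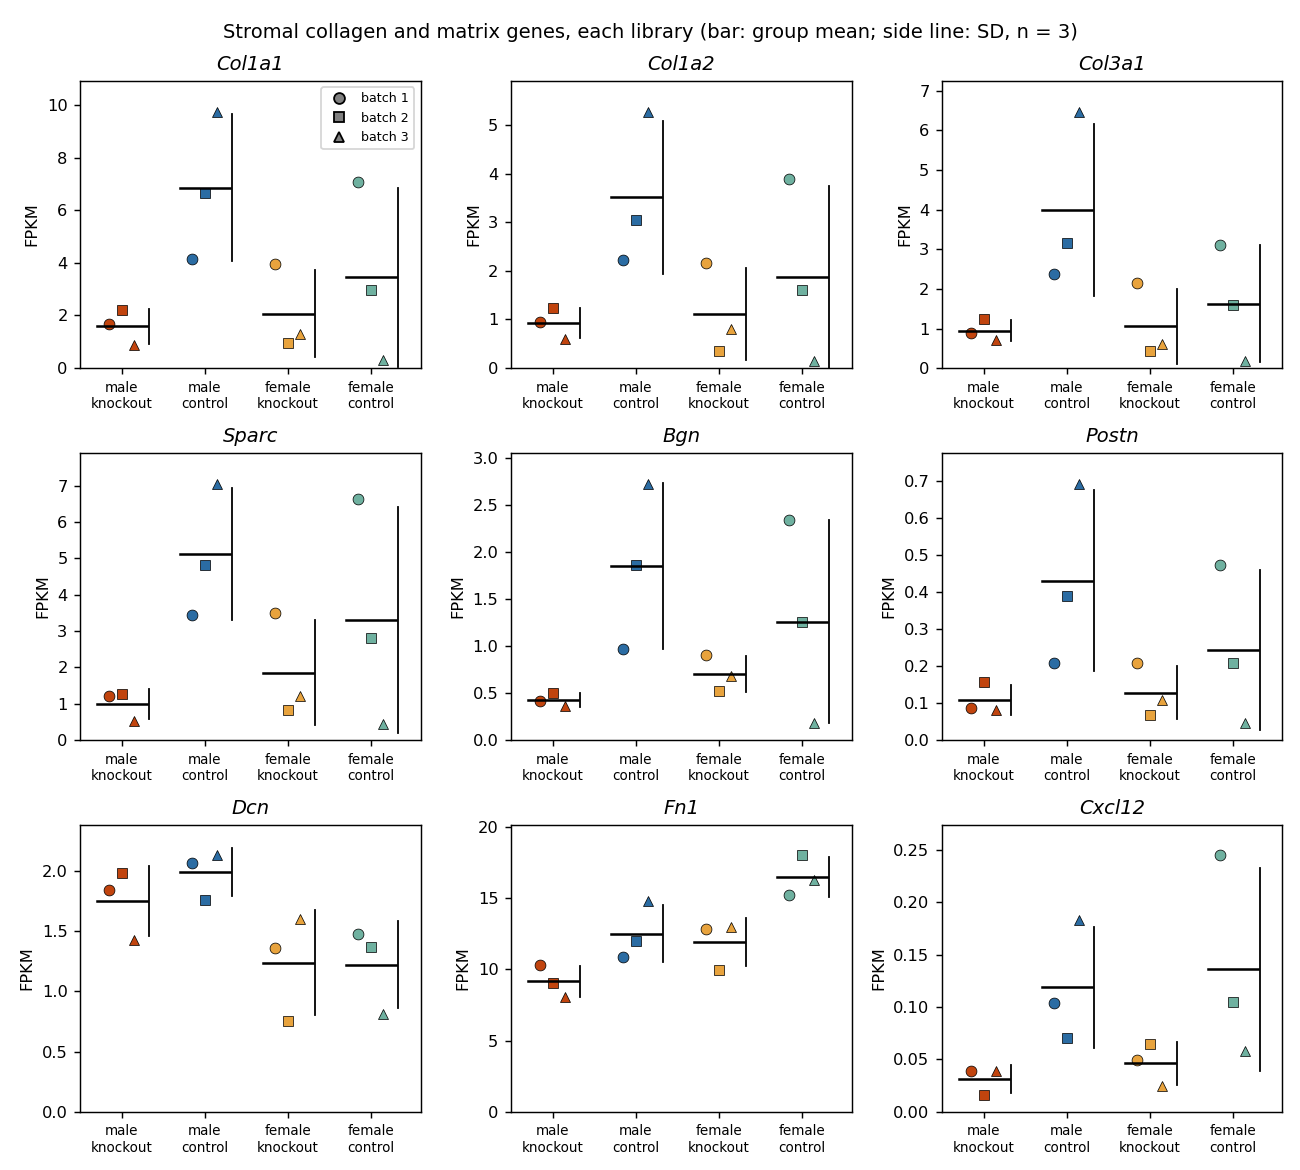
FPKM (vertical axes, linear, each from 0) of the 9 stromal collagen and matrix genes in the 12 libraries by group; circles, squares and triangles mark batches 1, 2 and 3, horizontal bars the group means and side lines the SD (n = 3, drawn down to 0 at most). Male knockouts sit below male controls without overlap for every gene except Dcn, whereas female controls spread widely for the collagens, with Col1a1 between 0.318 and 7.08 FPKM.

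Type I and type III collagen transcripts were lower in every male knockout library than in any male control library. Col1a1 (chromosome 11) had 1.66, 2.21 and 0.889 FPKM in male knockouts, against 4.16, 6.65 and 9.74 FPKM in male controls. The group means were 1.59 ± 0.663 FPKM in knockouts and 6.85 ± 2.79 FPKM in controls (SD, n = 3 each). The groups were apart, and male control replicate 3 was the highest of the 12 libraries. Col1a2 (chromosome 6) had 0.955, 1.23 and 0.609 FPKM in male knockouts, against 2.22, 3.05 and 5.27 FPKM in male controls. Col3a1 (chromosome 1) had 0.885, 1.24 and 0.712 FPKM in male knockouts, against 2.38, 3.16 and 6.47 FPKM in male controls. All 3 genes ordered the 6 male libraries with the knockouts lowest, at 0.232 of the control mean for Col1a1, 0.265 for Col1a2 and 0.236 for Col3a1. The reads behind Col1a1 were 172, 545 and 91 in male knockouts and 451, 682 and 1027 in male controls, the 545 coming from the most deeply sequenced library.

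The proteins that decorate the fibrils showed the same separation in males, apart from decorin. Sparc (chromosome 11) had 1.21, 1.27 and 0.524 FPKM in male knockouts, against 3.45, 4.81 and 7.06 FPKM in male controls. Bgn (chromosome X) had 0.416, 0.501 and 0.357 FPKM in male knockouts, against 0.973, 1.86 and 2.73 FPKM in male controls. Postn (chromosome 3) was a low transcript, with 0.0875, 0.156 and 0.081 FPKM in male knockouts, against 0.209, 0.39 and 0.694 FPKM in male controls. Knockout means were 0.196 of the control mean for Sparc, 0.229 for Bgn and 0.251 for Postn, and none of the 3 pairs of groups overlapped. Dcn (chromosome 10) had 1.84, 1.98 and 1.43 FPKM in male knockouts, against 2.07, 1.76 and 2.13 FPKM in male controls. These Dcn ranges overlapped, and the means were 1.75 ± 0.289 FPKM in knockouts and 1.99 ± 0.198 FPKM in controls (SD, n = 3 each).

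Fibronectin had the highest FPKM of the 9 transcripts in every library and supplied between 30.1% and 88.2% of their summed FPKM. Fn1 (chromosome 1) had 10.3, 9.05 and 8.09 FPKM in male knockouts, against 10.9, 12.0 and 14.8 FPKM in male controls. The groups were adjacent without overlap, and the knockout mean was 0.729 of the control mean. Cxcl12 (chromosome 6) had 0.0388, 0.0163 and 0.0392 FPKM in male knockouts, against 0.104, 0.0704 and 0.183 FPKM in male controls. Each male knockout value rested on 5 reads and the male control values on 14, 9 and 24 reads, so the ratio of means of 0.264 carries a wide counting error.

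No gene of the list passed the test in males, and no gene of the transcriptome did either. Limma, a linear model fitted to log2(FPKM + 1) of all 12 libraries, tested the 12102 genes with at least 1 FPKM in at least 3 libraries, with p-values adjusted by Benjamini-Hochberg and called under 0.05. It called 0 of 12102 genes (0.0% called), with 822 at an unadjusted p under 0.05; limma voom on the recovered reads called 2. Of the 9 genes, 7 passed the filter on low values, Bgn with 4 libraries at or above the minimum and none of them a knockout, and Postn and Cxcl12 did not. On the log2(FPKM + 1) scale, which understates the change of low genes, Sparc differed by -1.59 ± 0.52 (SE, adjusted p = 0.653) and Col1a1 by -1.57 ± 0.57 (adjusted p = 0.686). The differences were -1.29 for Col3a1, -1.18 for Col1a2, -0.96 for Bgn, -0.41 for Fn1 and -0.12 for Dcn, with adjusted p between 0.653 and 0.943. With voom, which adds its constant to read counts and not to FPKM, the differences of Bgn and Col1a2 were larger. They were -1.94 and -1.75, with adjusted p of 0.529 and 0.599. With a pseudocount of 5 the differences were smaller, at -0.74 for Sparc and -0.83 for Col1a1, with adjusted p of 0.598 and 0.602. The median of the 7 tested differences was -1.18, beside 0.01 over all tested genes. Postn and Cxcl12 each gave an exact two-sided permutation p of 0.1, the smallest that 3 against 3 libraries allow.

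Separation of the male groups without overlap, in the lower direction, held for 8 of the 9 genes, 6 of them among the 7 tested. Among all 12102 tested genes 5.24% were lower in male knockouts without overlap, and 5.67% of 12390 protein-coding genes with at least 10 reads in at least 3 libraries, a set that holds all 9. The 9 genes were chosen with these values known, so the count is a description. The difference was present in each labelled batch, as any pairing of libraries gives where groups do not overlap, so the batches add no support. For Col1a1 the knockout library stood at 0.4, 0.332 and 0.0912 of its control in batches 1, 2 and 3, and for Sparc at 0.349, 0.264 and 0.0742. All genes but Dcn were lower in the knockout in 3 of 3 batches; Dcn was lower in 2. Without male control replicate 3, the library with the highest collagen levels, the difference was -1.31 for Col1a1 and -1.37 for Sparc. In bulk RNA, fewer cells of a type and less RNA per cell cannot be told apart.

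In female cultures the groups overlapped for these collagens, and the female controls had the widest ratio of highest to lowest library of the 4 groups. Col1a1 had 3.97, 0.952 and 1.28 FPKM in female knockouts, against 7.08, 2.96 and 0.318 FPKM in female controls. Female control replicate 1 was the second highest of all 12 libraries for Col1a1 and female control replicate 3 the lowest, 22.2-fold apart. Col1a2 had 2.17, 0.358 and 0.811 FPKM in female knockouts, against 3.88, 1.6 and 0.141 FPKM in female controls. Col3a1 had 2.15, 0.426 and 0.615 FPKM in female knockouts, against 3.12, 1.59 and 0.192 FPKM in female controls. Both genes again had their widest spread in female controls, which spanned 27.5-fold for Col1a2 and 16.2-fold for Col3a1. The lowest Col1a1 level rested on 31 reads and the highest female level on 743.

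Sparc had 3.5, 0.824 and 1.22 FPKM in female knockouts, against 6.64, 2.82 and 0.445 FPKM in female controls. Bgn had 0.907, 0.523 and 0.685 FPKM in female knockouts, against 2.34, 1.26 and 0.177 FPKM in female controls. Postn had 0.207, 0.0687 and 0.107 FPKM in female knockouts, against 0.474, 0.209 and 0.0465 FPKM in female controls. For these fibril-binding genes too, the control range enclosed all 3 knockout values. Dcn had 1.36, 0.751 and 1.6 FPKM in female knockouts, against 1.48, 1.37 and 0.808 FPKM in female controls, with means of 1.24 ± 0.437 and 1.22 ± 0.361 FPKM (SD, n = 3 each). Cxcl12 had 0.0498, 0.065 and 0.0243 FPKM in female knockouts, against 0.245, 0.105 and 0.0577 FPKM in female controls. The highest Cxcl12 knockout library lay above the lowest control library, and the values rested on 3 to 32 reads.

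Fibronectin was the exception in females. Fn1 had 12.8, 9.98 and 13 FPKM in female knockouts, against 15.2, 18.0 and 16.3 FPKM in female controls, on 1756 to 3936 reads. The groups did not overlap, and the means were 11.9 ± 1.68 FPKM in knockouts and 16.5 ± 1.41 FPKM in controls (SD, n = 3 each). Fn1 fell by 0.44 ± 0.12 on the log2 scale (SE, limma adjusted p = 0.0124). By batch the knockout stood at 0.842, 0.554 and 0.797 of the control. Lower values in 3 of 3 batches follow from the lack of overlap and add no support. Leaving out 1 library at a time gave adjusted p between 0.0149 and 0.0496, and without the library labelled female knockout replicate 3 the difference was -0.5 (adjusted p = 0.0149).

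Of the 7 tested genes Fn1 alone passed in females, against 24.9% of all tested genes called lower in this comparison (49.8% called in either direction). It was also the 1 gene of 9 that was lower without overlap, against 29.9% of all tested genes. A share of 1 in 7 does not exceed that background. The remaining tested differences in females were -0.4 for Sparc, -0.31 for Col1a1, -0.3 for Col1a2, -0.29 for Bgn, -0.27 for Col3a1 and 0.0 for Dcn, with adjusted p between 0.491 and 0.987. The median of the 7 was -0.3, beside -0.01 over all tested genes. Exact two-sided permutation p-values were 0.6 for Postn and 0.2 for Cxcl12. Within batches the direction differed: Col1a1 in the knockout was 0.561 and 0.322 of its control in batches 1 and 2, and 4.03 times its control in batch 3. Without female control replicate 3, Bgn differed by -0.7 (adjusted p = 0.0446), Sparc by -1.04 (adjusted p = 0.0663) and Col1a1 by -1.01 (adjusted p = 0.0969). Bgn reached the minimum of the filter in control libraries only, so its call lower in that setting is not independent of the filter. Without female control replicate 1 the signs turned, at 0.06 for Bgn, 0.16 for Sparc and 0.3 for Col1a1. Without the library labelled female knockout replicate 3, Sparc differed by -0.28, Col1a1 by -0.16, Col1a2 by -0.23, Col3a1 by -0.14, Bgn by -0.28 and Dcn by -0.11, and none of these passed.

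**Figure D2:**
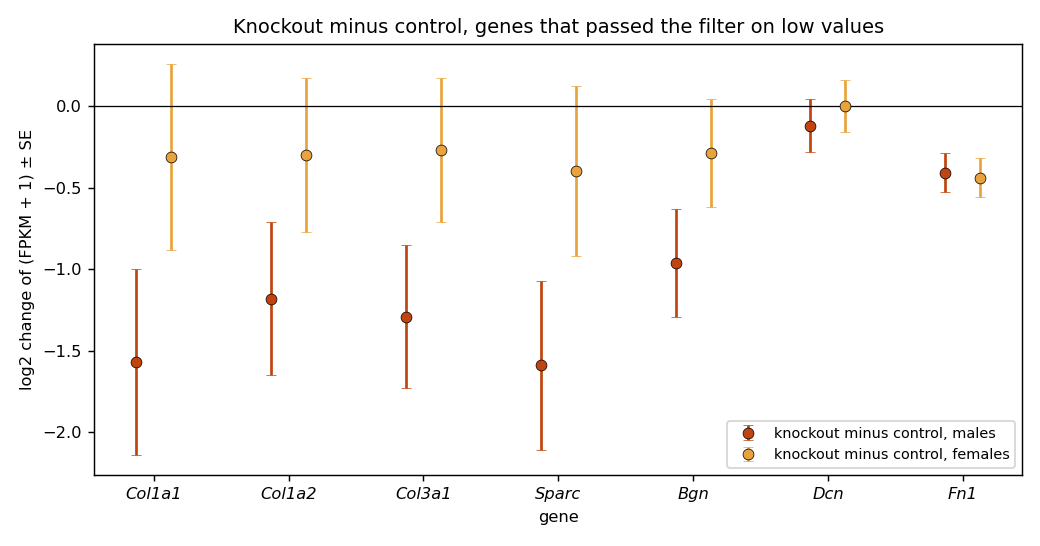
Knockout minus control on the log2(FPKM + 1) scale (vertical axis) for the 7 genes that passed the filter on low values, in males and females; points are limma estimates and bars ± 1 SE. The male estimates lie between -1.59 and -0.12 and the female ones between -0.44 and 0.0, and the 2 Fn1 estimates, -0.41 and -0.44, lie side by side.

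For none of the 7 tested genes did the difference between the female and male knockout effects pass the test. The female minus male difference of effects was 1.26 for Col1a1 (95% interval -0.52 to 3.05, limma adjusted p = 0.255) and 1.19 for Sparc (-0.43 to 2.81, adjusted p = 0.238). It was 1.02 for Col3a1, 0.88 for Col1a2 and 0.67 for Bgn, with adjusted p of 0.235, 0.331 and 0.288. For Fn1 it was -0.03 (-0.42 to 0.36, adjusted p = 0.906) and for Dcn 0.13 (-0.37 to 0.63, adjusted p = 0.697). Of all tested genes 34.6% were called in this comparison, 17.9% with a higher and 16.7% with a lower value, and 0 of these 7. The intervals of the collagens reach from a small difference of the opposite sign to one larger than the male effect.

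Between the sexes, fibronectin and decorin differed in opposite directions in control cultures. Fn1 averaged 16.5 ± 1.41 FPKM in female controls and 12.5 ± 2.01 FPKM in male controls (SD, n = 3 each), a difference of 0.38 ± 0.12 (SE, limma adjusted p = 0.0217). Dcn averaged 1.22 ± 0.361 FPKM in female controls and 1.99 ± 0.198 FPKM in male controls (SD, n = 3 each), a difference of -0.44 ± 0.16 (SE, limma adjusted p = 0.0336). Neither pair of groups overlapped, as for 32.2% of all tested genes in the higher and 32.7% in the lower direction. Calls were made for 29.5% of all tested genes as higher and 30.7% as lower in female controls, 60.3% in all, and for 1 of the 7 in each direction. Both calls depended on single libraries. Leaving out male control 1, male control 2 or female control 2 gave Fn1 an adjusted p of 0.0865, 0.0622 or 0.0795. Leaving out male control 1, male control 3 or female control 3 gave Dcn an adjusted p of 0.0804, 0.0885 or 0.135. With the reads assigned to genes as denominator Dcn differed by -0.31 (adjusted p = 0.107). Col3a1 differed by -1.01 between female and male controls (adjusted p = 0.0686), and with voom by -1.58 (adjusted p = 0.0365). Without female control replicate 1, all 7 tested genes were called, Col1a1 at -1.72 (adjusted p = 0.0164) and Fn1 at 0.43 (adjusted p = 0.0245).

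In knockout cultures no tested gene of the list was called between the sexes, where 13.1% of all tested genes were called higher and 20.4% lower, 33.5% in all. Fn1 averaged 11.9 ± 1.68 FPKM in female knockouts and 9.15 ± 1.11 FPKM in male knockouts (SD, n = 3 each), a difference of 0.35 (limma adjusted p = 0.0537). It passed with the assigned reads as denominator, at 0.45 (adjusted p = 0.0126), and with voom, at 0.49 (adjusted p = 0.00234). Bgn was higher in all 3 female knockouts, at 0.705 ± 0.193 FPKM, than in any male knockout, at 0.425 ± 0.0723 FPKM (SD, n = 3 each), with a limma difference of 0.25 (adjusted p = 0.588). Separation without overlap in that direction held for 20.9% of all tested genes.

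By group mean, Col1a1, Col1a2, Col3a1, Sparc, Bgn and Postn shared 1 order: male control highest, then female control, female knockout and male knockout. Neighbours in that order overlapped in their libraries for all 6, except that Bgn in female knockouts lay above male knockouts. Fn1 and Cxcl12 were ordered female control, male control, female knockout, male knockout. For Fn1 the female controls lay above the male controls without overlap, while male controls and female knockouts overlapped, as did female and male knockouts. Dcn was ordered by sex, with male control and male knockout above female knockout and female control, and neighbouring groups overlapped.

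Col1a1 and 5 more of the 9 genes moved together from library to library. Within all 4 groups Col1a2, Col3a1, Sparc, Bgn and Postn ranked the 3 libraries exactly as Col1a1 did. Cxcl12 shared that ranking in 1 group, Fn1 in 1 and Dcn in 2. Across the 12 libraries, on the log2(FPKM + 0.1) scale, Col1a2 and Col3a1 each correlated with Col1a1 at Pearson's r = 0.99, Sparc at 0.97, and Postn and Bgn at 0.94. Spearman's rho was 0.99 for Col1a2 and Sparc, 0.97 for Col3a1 and Postn and 0.92 for Bgn. Permutation p-values were between 1e-05, the smallest that 100000 permutations can give, and 4e-05, and Benjamini-Hochberg adjustment over the 8 genes left them at or below 6.4e-05. With the 2 libraries farthest from the median of Col1a1 left out, female control replicate 3 and male control replicate 3, r stayed between 0.89 and 0.98. These correlations hold the group differences as well as the spread within groups, and 4 libraries per batch are too few for a value within a batch.

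The other 3 genes had weaker correlations with Col1a1. Cxcl12 correlated with Col1a1 at r = 0.63 (permutation p = 0.0257, adjusted 0.0294) and rho = 0.64 (p = 0.0274, adjusted 0.0365). Dcn reached r = 0.67 (permutation p = 0.0163, adjusted 0.0218) and rho = 0.57 (p = 0.055, adjusted 0.0628), and without the 2 farthest libraries r was 0.4. Those 2 were chosen as extremes of Col1a1, so r without them covers a narrower range. Fn1 gave r = 0.24 (permutation p = 0.455) and rho = 0.29 (p = 0.354), and without the 2 farthest libraries r was 0.56; that of Cxcl12 was 0.64. Female control replicate 3 shows the difference: it was the lowest library for all 6 co-varying genes while its Fn1 level, 16.3 FPKM, was the second highest of the 12. The ratio of Col1a1 to Col1a2, the chains of a single protein, stayed between 1.46 and 2.66, a span of 1.82-fold, and that to Col3a1 spanned 1.82-fold too. The ratio of Col1a1 to Sparc spanned 2.43-fold, to Dcn 12.2-fold and to Fn1 33.7-fold.

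**Figure D3:**
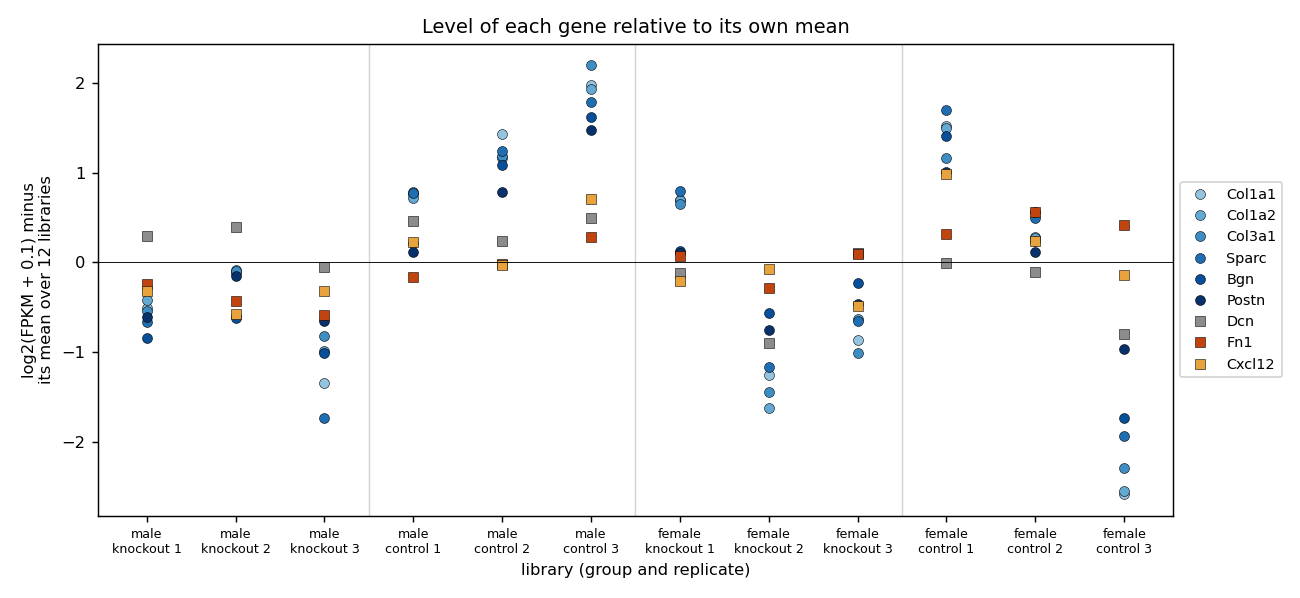
Level of each of the 9 genes in the 12 libraries, as log2(FPKM + 0.1) minus the gene's own mean over the 12 libraries (vertical axis); blue circles are the 6 genes that ranked alike, squares are Dcn, Fn1 and Cxcl12. The circles lie above 0 in all male controls and below 0 in all male knockouts, and in female controls they lie above 0 in replicates 1 and 2 and lowest of all in replicate 3, where Fn1 lies above 0.

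**Figure D4:**
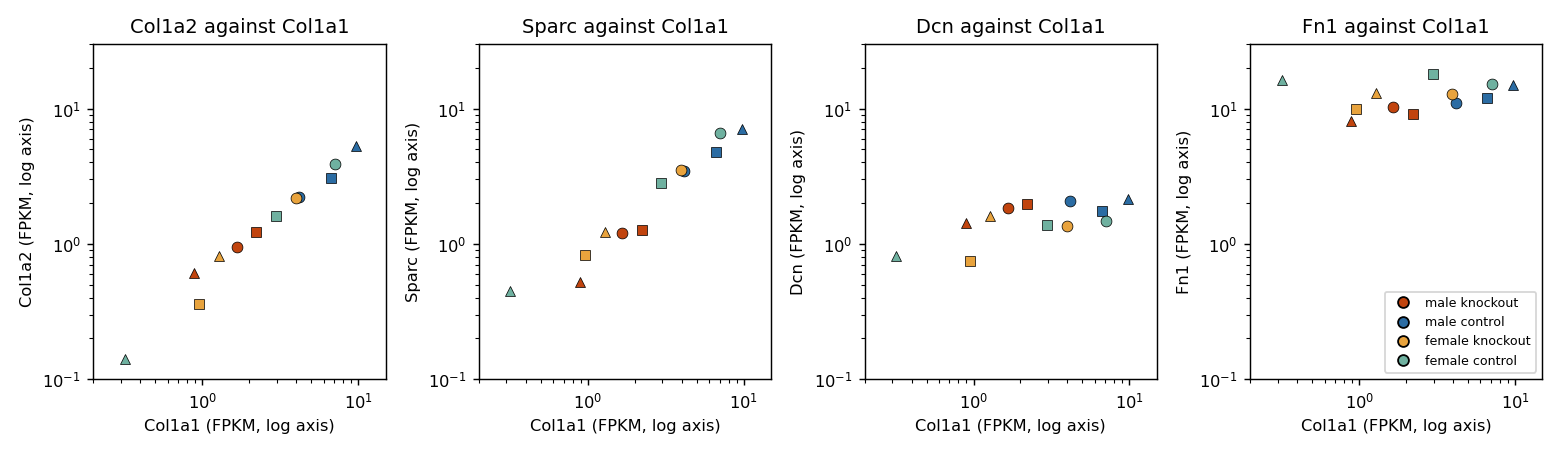
Col1a2, Sparc, Dcn and Fn1 (vertical axes) against Col1a1 (horizontal axes) in the 12 libraries, in FPKM on log axes; colours mark the groups and symbols the batches. Col1a2 and Sparc rise with Col1a1 across the libraries (r = 0.99 and 0.97), Dcn loosely (r = 0.67), and Fn1 stays between 8.09 and 18.0 FPKM while Col1a1 runs from 0.318 to 9.74 FPKM.

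Because these genes moved together, the 150 bases before their transcription starts are shown for 3 of them, each holding a different one of 3 promoter motifs searched on both strands. RefSeq's promoter table for GRCm38.p6 held 6 of the 9 genes, with 7 starts, Postn having 2; it held no entry for Col1a1, Fn1 or Dcn. Capitals mark the motif, and all 3 windows are printed 5′ to 3′ on the plus strand, which is the strand of these genes. They are Col1a2 at chr6:4505468-4505617, Bgn at chrX:73483451-73483600 and the second Postn start at chr3:54360957-54361106.
Col1a2: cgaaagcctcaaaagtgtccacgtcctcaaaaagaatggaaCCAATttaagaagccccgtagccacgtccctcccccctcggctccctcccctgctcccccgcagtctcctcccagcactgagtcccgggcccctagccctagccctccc
Bgn: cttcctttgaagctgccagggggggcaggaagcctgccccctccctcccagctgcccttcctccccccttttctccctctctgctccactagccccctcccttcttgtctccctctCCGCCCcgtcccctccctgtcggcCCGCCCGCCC
Postn: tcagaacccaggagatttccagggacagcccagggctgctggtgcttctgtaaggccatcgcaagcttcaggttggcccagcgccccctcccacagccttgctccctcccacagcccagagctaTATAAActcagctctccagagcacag
The Col1a2 window holds a CCAAT box (CCAAT or its reverse complement ATTGG) that begins 109 bases before the start; 24.5% of 32851 promoter windows of this length hold one. The Bgn window holds 3 copies of the GC box (CCGCCC, or GGGCGG on the other strand), beginning 34, 10 and 6 bases before the start, the last 2 overlapping; 28.6% of windows hold one. The Postn window holds TATAAA 26 bases before the start, as 7.57% of windows hold it or TTTATA. Of the 6 genes matched, 1 held the CCAAT box, 2 TATAAA (Col3a1 the other, 117 bases before the start) and 2 the GC box (Cxcl12 the other). Motifs were counted anywhere in the 150 bases. The letters are a description, and binding at them was not measured.

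Genes outside the list with the most similar profile were mostly further collagens and enzymes or receptors of collagen. The mean of the 9 genes' scaled log2(FPKM + 0.1) values over the 12 libraries was correlated with each of 12390 protein-coding genes. The 10 highest were Cyp1b1 (r = 0.981), Adamts2 (0.979), Col6a2 (0.975), Tnn (0.972), Col6a1 (0.971), Col5a1 (0.966), Col6a3 (0.956), Ddr2 (0.946), Col12a1 (0.946) and Ccn5 (0.943). Col6a1, Col6a2 and Col6a3 encode chains of type VI collagen, Col5a1 a chain of type V and Col12a1 that of type XII. Adamts2 encodes a protease that trims procollagen, and Ddr2 a receptor kinase for fibrillar collagen. Col6a1 averaged 0.662 FPKM in male knockouts, 2.48 FPKM in male controls, 0.804 FPKM in female knockouts and 1.89 FPKM in female controls. All 10 were lower in male knockouts without overlap, and all 10 overlapped in females, as follows in part from being chosen for likeness. The 9 genes correlated with their own mean at 0.981 for Sparc, 0.975 for Postn, 0.968 for Col1a1, 0.966 for Col1a2, 0.965 for Bgn and 0.962 for Col3a1. Cxcl12 stood at 0.758, Dcn at 0.613 and Fn1 at 0.43.

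Among 18 other collagen genes, 10 of the 15 with enough reads were lower in male knockouts without overlap and none higher, against 5.67% and 6.83% of the 12390 protein-coding genes. None of the 5 that passed the filter of the test was called in males. In females 2 of the 15 were lower without overlap and 2 higher, against 29.9% and 26.9% of the 12390 genes. Of the 5 tested, 2 were called higher and 1 lower in female knockouts, against 24.9% of all tested genes in each direction. Col18a1, which encodes the precursor of endostatin, averaged 8.5 ± 1.05 FPKM in female knockouts and 6.78 ± 0.23 FPKM in female controls (SD, n = 3 each), a rise of 0.28 (limma adjusted p = 0.00911). Col27a1, a fibrillar collagen of cartilage, differed by 0.21 (adjusted p = 0.0388), and Col4a1, a basement membrane collagen, fell by 0.46 (adjusted p = 0.0256). Col4a1 reached the minimum of the filter in 3 libraries, all of them controls. It was thus tested only because controls were high, and its call lower is not independent of the filter. With the assigned reads as denominator the adjusted p was 0.056 for Col18a1 and 0.146 for Col27a1. The median difference of the 5 was -0.34 in males and -0.18 in females, beside 0.01 and -0.01 over all tested genes.

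Genes that process collagen changed in females, mostly upward. Of 26 enzymes and chaperones of collagen processing and cross-linking, 13 were tested: 9 were called higher and 1 lower in female knockouts, against 24.9% of all tested genes in each direction, and 0 in males. Plod3 and Plod1, lysyl hydroxylases, rose by 0.46 (limma adjusted p = 3.37e-06) and 0.37 (adjusted p = 1.54e-05). P4ha1, the catalytic subunit of prolyl 4-hydroxylase, rose by 0.35 (adjusted p = 3.05e-05). Its partner subunit P4hb averaged 321 ± 10.2 FPKM in female knockouts and 274 ± 2.94 FPKM in female controls (SD, n = 3 each), a rise of 0.23 (adjusted p = 0.00168). With the assigned reads as denominator P4hb differed by 0.12 (adjusted p = 0.0503). Colgalt1, which adds galactose to collagen, fell by 0.41 (adjusted p = 8.92e-06). In males 6 of the 23 with enough reads were lower without overlap, namely Plod3, Serpinh1, P4ha2, Bmp1, Loxl1 and Adamts2, and 0 were higher, against 5.67% and 6.83% of the 12390 protein-coding genes.

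Of 7 collagen-degrading proteases 5 were tested, with 3 called higher in female knockouts (24.9% of all tested genes) and 0 in males. For those 3 genes the difference between the female and male effects also passed the test, for Mmp9 not without the filter on low values (adjusted p = 0.161). Mmp9, a gelatinase of osteoclasts, averaged 3150 ± 289 FPKM in female knockouts and 2330 ± 128 FPKM in female controls (SD, n = 3 each), a rise of 0.43 (limma adjusted p = 0.00115; 0.0621 with no filter on low values). Mmp14, a membrane-bound collagenase, rose by 0.38 (adjusted p = 2.71e-05), and Mmp13, a secreted collagenase, by 1.09 (adjusted p = 0.0013). Ctsk, encoding cathepsin K, averaged 5020 ± 678 FPKM in female knockouts and 4370 ± 172 FPKM in female controls (SD, n = 3 each), a difference of 0.19 (adjusted p = 0.104).

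Other matrix glycoproteins and matrix receptors gave mixed results in females and no call in males. Of 31 glycoproteins and proteoglycans 8 were tested, with 3 called higher and 1 lower in female knockouts, against 24.9% of all tested genes in each direction. In males 6 of the 19 with enough reads were lower in knockouts without overlap and 0 higher, against 5.67% and 6.83% of the 12390 genes: Igfbp7, Hspg2, Tnc, Nid1, Fbln2 and Lamb1. Ecm1 averaged 39.8 ± 3.0 FPKM in female knockouts and 16.1 ± 1.67 FPKM in female controls (SD, n = 3 each), a rise of 1.25 (limma adjusted p = 7.29e-06). Emilin1, a glycoprotein of elastic fibres, rose by 0.56 (adjusted p = 1.48e-05) and Thbs1, thrombospondin 1, by 0.47 (adjusted p = 0.0165; 0.0545 without the library labelled female knockout replicate 3). Lamc1, a laminin chain, fell by 0.29 (adjusted p = 0.00277). Of 18 receptors of matrix and CXCL12, 10 were tested, with 3 called higher and 2 lower in female knockouts, about the share of 24.9% in each direction among all tested genes. In males 2 of the 17 with enough reads, Itga2 and Ddr2, were lower without overlap and 0 higher, against 5.67% and 6.83% of the 12390 genes. Ddr2 had 5, 10 and 3 reads in male knockouts, against 8, 15 and 23 in male controls. Lair1, an inhibitory collagen receptor of leukocytes, rose by 0.63 (adjusted p = 0.000387), and Sdc4, a syndecan, by 0.3 (adjusted p = 0.00302). Sdc1, another syndecan, fell by 0.41 (adjusted p = 1.96e-05), and Cd44, the hyaluronan receptor, by 0.2 (adjusted p = 0.00431). Itgb1, the beta-1 integrin chain, averaged 174 ± 5.23 FPKM in female knockouts and 181 ± 10.6 FPKM in female controls (SD, n = 3 each; adjusted p = 0.38).

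Markers of stromal and perivascular cells moved with the list in males in part. Of 28 such markers, 21 had enough reads and 9 of these were lower in male knockouts without overlap, with 0 higher, against 5.67% and 6.83% of the 12390 genes: Igfbp4, Gas6, Acta2, Ccn1, Ccn2, Serpinf1, Pdgfrb, Igfbp5 and Prrx1. Summed over the 28 markers the level was 39.6 to 44.3 FPKM in male knockouts and 45.8 to 55.7 FPKM in male controls. In females the median sum was higher in knockouts, with ranges that overlapped, 39.5 to 47.1 FPKM in knockouts and 27.8 to 39.9 FPKM in controls. Igfbp4, Eng and Gas6 weigh most in the sum, with means of 8.3, 7.86 and 7.33 FPKM over the 12 libraries. It therefore does not give the direction of the other markers. Prrx1, a transcription factor of mesenchymal cells, had 0.0344, 0.06 and 0.0521 FPKM in male knockouts, against 0.0657, 0.121 and 0.253 FPKM in male controls. In females Prrx1 had 0.0842, 0.06 and 0.0479 FPKM in knockouts, against 0.186, 0.0966 and 0.00609 FPKM in controls, with the lowest value again in female control replicate 3. Pdgfra and Lepr, receptors that define marrow stromal cells, were at or below 0.168 and 0.0618 FPKM in every library, and 5 of the 28 markers stayed under 0.1 FPKM throughout. None of the 10 tested markers was called in males, while 5 were called higher and 1 lower in female knockouts, against 24.9% of all tested genes in each direction, with Gas6 rising by 1.25 (limma adjusted p = 2.12e-06). Igfbp4 and Eng rose by 0.69 (adjusted p = 1.34e-05) and 0.72 (adjusted p = 0.000151), and Ccn1 by 0.78 (adjusted p = 0.00565). Myl9, a myosin light chain of smooth muscle, was the marker called lower, falling by 0.78 (adjusted p = 0.0447). Without overlap 4 of the 21 were lower in female knockouts, Myl9, Angpt1, Thy1 and Cspg4, and 5 higher, against 29.9% and 26.9% of the 12390 genes. The part of stromal cells in the male difference of the collagens was not tested.

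Other cell types gave these levels. Summed over 12 endothelial markers the level was 28.1 to 33.3 FPKM in male knockouts and 24.7 to 30.3 FPKM in male controls, and 12.9 to 16 FPKM in female knockouts and 8.78 to 10.3 FPKM in female controls. Kdr weighs heavily in the female sums, at 7.16 ± 1.64 FPKM in knockouts and 0.564 ± 0.126 FPKM in controls (SD, n = 3 each). The sums therefore do not give the direction of the other markers. Of the 8 with enough reads, Vwf, Pecam1 and Tie1 were lower in female knockouts without overlap and 3 were higher, against 29.9% and 26.9% of the 12390 genes. Cdh5, the endothelial cadherin, lay between 0.16 and 0.785 FPKM. Of 5 tested endothelial markers 2 were called higher and 1 lower in female knockouts, against 24.9% of all tested genes in each direction. In males 0 were called. Kdr rose by 2.37 in females (limma adjusted p = 8.03e-08) and Flt1 by 0.39 (adjusted p = 0.0108). Pecam1 fell by 0.33 (adjusted p = 0.0348) and did not pass once the low-value filter was dropped (adjusted p = 0.0921). Vwf differed by -0.23 (adjusted p = 0.137). Of 16 markers of osteoblasts and osteocytes 2 were tested, Spp1 and Runx2, and neither was called in either sex; with the assigned reads as denominator Runx2 fell by 0.26 in females (adjusted p = 0.0307). Of 8 adipocyte markers 3 were tested; Lpl, which macrophages also express, fell by 0.91 in females (adjusted p = 1.43e-06), Pparg differed by -0.2 (adjusted p = 0.0628), Fabp4 differed by 0.22 (adjusted p = 0.0921), and Plin1 was at 0 in every library. Osteoclast markers summed to 8790 to 9810 FPKM in male knockouts and 8700 to 9960 FPKM in male controls. In females they summed to 11000 to 13400 FPKM in knockouts and 9200 to 10200 FPKM in controls. Ctsk, Mmp9 and Acp5 weigh most in these sums, with means of 4290, 2550 and 2120 FPKM over the 12 libraries. The osteoclast sums therefore do not give the direction of the other markers. Of the 14 osteoclast markers, 7 were called higher and 1 lower in female knockouts, against 24.9% of all tested genes in each direction. Macrophage markers summed to 13800 to 14600 FPKM in male knockouts and 13100 to 15900 FPKM in male controls, and to 12200 to 13400 FPKM in female knockouts and 7190 to 8900 FPKM in female controls. Lyz2 weighs most in the macrophage sums, with a mean of 10400 FPKM over the 12 libraries, so they do not give the direction of the other markers. In males 4 of 12 macrophage markers, Cd68, Csf1r, Cx3cr1 and Mrc1, were lower in knockouts without overlap and 0 higher, against 5.67% and 6.83% of the 12390 genes. Cx3cr1, the fractalkine receptor, had 21.9, 18.0 and 18.1 FPKM in male knockouts, against 30.5, 34.4 and 42.8 FPKM in male controls, a difference of -0.85 (limma adjusted p = 0.0854). The part of macrophages in the male difference of the collagens was not tested. In females 11 of 12 macrophage markers were called higher and 1 lower, against 24.9% of all tested genes in each direction. All 16 tested interferon-stimulated genes were called higher there, with a median difference of 3.5. The part of these shifts in the female Fn1 difference was not tested.

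**Figure D5:**
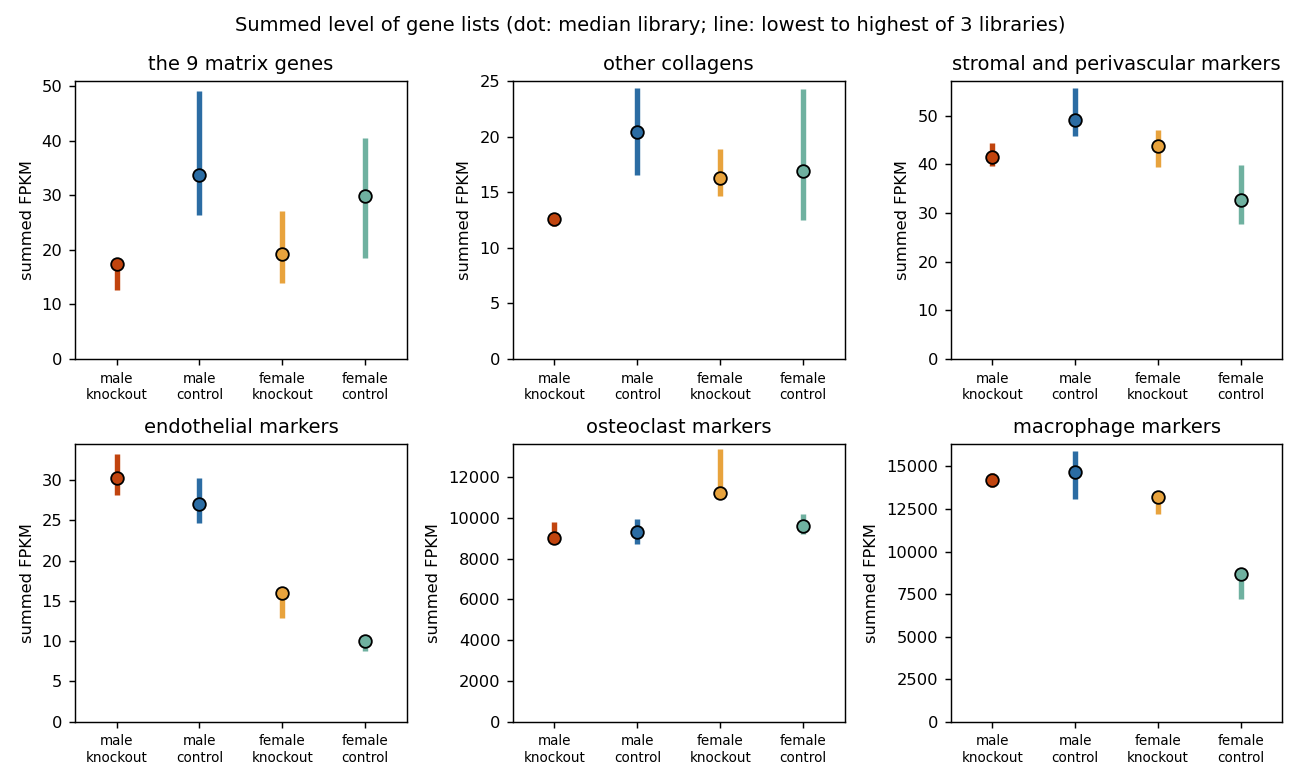
Summed FPKM (vertical axes, linear, from 0) of the 9 stromal collagen and matrix genes and of 5 other gene lists by group; dots are the median library and lines run from the lowest to the highest of the 3 libraries. The 9 genes sum to 12.7 to 17.7 FPKM in male knockouts and 26.4 to 49.1 FPKM in male controls, while the osteoclast markers sum to 8790 to 9810 FPKM in male knockouts and 8700 to 9960 FPKM in male controls. Ctsk, Mmp9 and Acp5 weigh most in the osteoclast sums and Lyz2 in the macrophage sums.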

How the data were processed

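RNA was sequenced from 12 osteoclast cultures, and groups, sex and batch came from the labels. The authors deposited 1 table of FPKM for 55806 genes; 1 line held no gene and was left out. Per the submitters' processing notes the tools included HISAT2 2.0.5 and featureCounts 1.5.0-p3, and the mouse build was mm10. The sources used here give neither the strand setting nor the FPKM denominator, so reads of overlapping or antisense genes may be mixed. The table's positions matched GENCODE M21 for 1 of the 9 genes, so chromosomes only are given for genes.

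FPKM times gene length gave whole reads within 0.01 for 100.0% of values above 0, and so the depth. Relative to the FPKM denominator the assigned reads stood at 1.075 to 1.105 in males, 1.007 to 1.017 in knockout females and 0.936 to 0.948 in control females, and they were tried as denominator. The log2(FPKM + 1) values of all libraries entered a single limma model (limma 3.58.1, R 4.3.3) of 4 group means without a block and with a trended prior (11 total degrees of freedom). Tested were genes that reached 1 FPKM in 3 or more libraries, two-sided, with Benjamini-Hochberg adjustment over 12102 genes. Every adjusted p of a difference is from this fit unless voom is named. The scripts were tested on simulated data. Genes under the filter got an exact permutation test of their FPKM.

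The 9 genes, the gene lists and the settings tried were chosen with earlier results of these data known. From each list the genes called in a knockout comparison, at most 4 by smallest p, and the 2 with the highest mean FPKM were named; osteoclast, macrophage and interferon lists are given as counts, and a few genes beyond the rule were named after their values were seen: Cdh5, Prrx1, Pdgfra, Lepr, Myl9, Fabp4, Cx3cr1, the bone-forming and fat markers near or at 0, and the genes named for groups that did not overlap. Numbers pair the libraries by labelled batch: deviations from group means correlated at 0.021 on average within batches (18 pairs, -0.118 to 0.092) and -0.011 between them (36 pairs, -0.16 to 0.184). Counts of reads limit precision of counting only.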

Additional observations from a re-analysis of the deposited data

Results flagged for a closer look

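No stromal collagen or matrix gene was singled out by the checks for a far sample or for a knockout effect that differs between the sexes; groups of 3 libraries are too small for the check of a far sample. Genes of the lists set beside them did have knockout effects that differed between females and males in limma's test of the difference itself. All values are the female minus the male knockout effect on the log2(FPKM + 1) scale. Among collagens and matrix glycoproteins the difference was 0.63 for Col18a1, 1.31 for Ecm1 and 0.6 for Emilin1. Among collagen-processing enzymes it was 0.55 for Plod3, -0.38 for Colgalt1, 0.4 for Plod1, 0.37 for P4ha1 and 0.32 for P4hb. Among matrix receptors it was -0.41 for Sdc1, 0.44 for Lair1, 0.35 for Sdc4 and -0.25 for Cd44. Among proteases it was 0.37 for Mmp14, 0.51 for Mmp9 and 1.22 for Mmp13. Among stromal and perivascular markers it was 1.48 for Gas6, 0.89 for Igfbp4, 0.75 for Eng and 1.58 for Ccn1. Among endothelial and adipocyte markers it was 2.16 for Kdr, -1.05 for Lpl and -0.42 for Pparg. The difference passed the threshold in 34.6% of all tested genes. The adjusted p of Lair1, 0.034, was 0.0899 with no filter on low values, 0.0736 with a pseudocount of 5 and 0.059 with the assigned reads as denominator, and that of Mmp9, 0.006, was 0.161 with no filter.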

How the results depend on the processing

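The planned edgeR and DESeq2 fits were not run, since the table holds FPKM and no counts; limma voom on the recovered reads was added after the data were seen. In males the count of genes called, 0 of 12102, was 4 with a pseudocount of 5, 2 with a filter of 5 FPKM, 2 with the assigned reads as denominator, 2 with voom and 0 to 1 with 1 library left out, and 0 of the 9 genes was called under any of these settings. In females the count of the 9 genes called, 1, was 1 to 2 with 1 library left out. Between female and male controls the count, 2, was 0 with no filter (adjusted p of 0.059 for Fn1 and 0.0876 for Dcn), 1 with a filter of 5 FPKM, which leaves Dcn out, 1 with the assigned reads and 1 to 7 with 1 library left out; with voom the adjusted p of Dcn was 0.0645. Between female and male knockouts the count, 0, was 1 with the filter of 5 FPKM (Fn1, adjusted p = 0.039), 1 with the assigned reads, 1 with voom and 0 to 1 with 1 library left out.

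Signs turned for Col1a2 (-0.02) and Col3a1 (-0.11) between female and male knockouts with a pseudocount of 0.1 and with voom, and for Dcn in females at -0.0 with a pseudocount of 0.1, -0.05 with the assigned reads and -0.12 with voom. With 1 library left out, the female knockout difference ran from -1.04 to 0.16 for Sparc, -1.01 to 0.3 for Col1a1, -0.84 to 0.2 for Col1a2, -0.75 to 0.14 for Col3a1, -0.7 to 0.06 for Bgn and -0.14 to 0.17 for Dcn. The difference between female and male knockouts ran from -0.26 to 0.42 for Col1a1, -0.29 to 0.32 for Col1a2 and -0.35 to 0.22 for Col3a1. The difference of the knockout effects ran from -0.15 to 0.08 for Fn1 and -0.01 to 0.3 for Dcn. The cause of these changes was not tested. None of these signs belonged to a call. With 1 library left out the adjusted p reached 0.0579 for Col4a1 and 0.146 for Col27a1 in females, without the library labelled female knockout replicate 3 it was 0.0558 for Col4a1, 0.0823 for Pecam1 and 0.0385 for Pparg, and with the assigned reads Itgb1 (-0.16, adjusted p = 0.0136), Vwf (-0.31, adjusted p = 0.041) and Pparg (-0.28, adjusted p = 0.0129) passed.

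With the assigned reads as denominator the median of all genes moved by -0.089 in females, 0.173 between controls and 0.094 between knockouts, and the calls in females became 2217 higher and 4365 lower, against 3018 and 3009 as deposited. Between controls they became 5650 higher and 2459 lower, against 3574 and 3721, and between knockouts 3190 and 1588, against 1586 and 2468. For the difference of the effects they became 1638 and 3130, against 2165 and 2020. With batch as replicate block the differences were the same and no call of the 9 genes changed; Fn1 in females differed by -0.44 (adjusted p = 0.0219). Postn and Cxcl12, at 3 to 97 reads, are limited by depth.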
